A study of Mus musculus with 20 samples.

Results

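The Platr genes (pluripotency-associated transcripts) and the Snhg genes (small nucleolar RNA host genes) are 2 named families of mostly non-coding RNA genes. They were chosen by symbol alone: every GENCODE M21 gene on the mm10 genome whose symbol is Platr or Snhg followed by digits only, which gave 44 of 55450 genes, 30 Platr and 14 Snhg. Of the 14 Snhg genes, 12 held an annotated small nucleolar RNA (snoRNA) on their own strand, as their name says, and 2 (Snhg10 and Snhg20) held only a small Cajal body RNA, a related class. Both classes are counted as snoRNA genes below, and 0 of the 30 Platr genes held either. GENCODE M21 types 3 of the 44 as protein-coding (Platr17, Platr25 and Snhg11) and 41 as long non-coding RNA classes, so the label "non-coding" holds for most of them but not for all.

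The data are lists of m6A peaks in RNA bound to chromatin, taken from C57BL/6 embryonic stem cells of the mouse, all grown with LIF, the GSK3 inhibitor CHIR99021 and the MEK inhibitor PD0325901. Each of 5 groups had 2 immunoprecipitated libraries, 10 in all. The Mettl3 set held a control and 2 knockouts, KO1 and KO2, of Mettl3, the enzyme of the complex that writes m6A, and the Ythdc1 set held a control and a conditional knockout (cKO) of Ythdc1, the nuclear m6A reader. The labels do not say what the controls were, whether KO1 and KO2 are single clones, how the conditional allele was deleted, or whether a group's libraries stem from separate cultures, so the spread between libraries may be technical.

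N6-methyladenosine (m6A) is placed on nascent RNA by a methyltransferase complex that favours GGAC and related sequences, and on messenger RNA it is found mainly in long exons and near stop codons. Platr RNAs were named for their high levels in embryonic stem cells and their decline on differentiation, and several of them are transcribed from, or close to, transposon sequence. Snhg genes are transcribed into a precursor from whose introns snoRNAs, the guides of ribosomal RNA modification, are cut out, while the spliced host RNA is left over. Chromatin-associated RNA is rich in nascent and unspliced transcripts, so peaks may lie in introns as well as in exons.

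A peak is a stretch where immunoprecipitated reads were enriched in a library, and its summit is the position of the highest enrichment. A peak was given to a gene when its summit lay in the gene body on the same strand. Overlapping peaks of different libraries were joined into regions, a region was given to a gene when at least 1 of its summits lay in the body, and the regions of a gene are numbered here along the chromosome. Each value is the authors' fold enrichment over background at the summit of the strongest peak in that library. Fold enrichment has no common scale between libraries, so values from different libraries are given side by side and only presence or absence of a peak is compared. Where a peak is listed, enrichment was called, which does not by itself show m6A there, in the Mettl3 knockouts included. Where a peak is absent, none was listed, which does not show that the RNA lacked m6A. A lower amount of the transcript and less m6A on it cannot be told apart without counts. For the same reason fewer cells that make an RNA and less of it per cell cannot be told apart.

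The 10 libraries held 40959 to 46735 peaks on the chromosomes used, fewest in KO1. Read depth was not used here. Of 10 embryonic stem cell markers, 9 or 10 had a peak in each library. Of 6 fibroblast markers, 5 had a peak in both Mettl3 control libraries and 1 in each of the 4 Mettl3 knockout libraries, with 1 in each Ythdc1 control and 2 in each cKO library, and Thy1 had none anywhere. Of 3 primitive endoderm markers, 1 had a peak in each cKO library and 0 in the other libraries. The fibroblast count thus differed between the Mettl3 controls and knockouts, and its part in the results below was not tested.

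The sequences below are windows of up to 50 nucleotides on each side of the strongest exonic summit, cut at the edge of the exon, from the GENCODE M21 transcript sequences (GRCm38). They show the exonic peaks that the results turn on, 5′ to 3′ on the strand of the gene, and capitals mark GGAC, the core of the m6A consensus. The Platr31 and Platr12 windows belong to peaks that were absent from every Mettl3 knockout library.
Platr31, chr6:127109703-127109803, plus strand: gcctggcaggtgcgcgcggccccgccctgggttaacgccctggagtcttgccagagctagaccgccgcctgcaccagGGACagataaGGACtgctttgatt
Platr12, chr1:63200328-63200428, plus strand: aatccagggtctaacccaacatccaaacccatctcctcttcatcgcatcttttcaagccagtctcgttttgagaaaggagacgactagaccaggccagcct
The Platr20 window belongs to a peak that was absent from both KO1 libraries and present in the 8 other libraries.
Platr20, chr11:51190061-51190161, minus strand: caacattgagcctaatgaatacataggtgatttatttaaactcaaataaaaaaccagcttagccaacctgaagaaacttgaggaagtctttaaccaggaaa
The next 6 windows belong to exonic peaks present in all 10 libraries.
Platr7, last exon, chr10:84548036-84548136, minus strand: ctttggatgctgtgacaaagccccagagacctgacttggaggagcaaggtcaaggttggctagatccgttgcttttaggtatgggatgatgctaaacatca
Platr22, last exon, chr1:136725192-136725292, plus strand: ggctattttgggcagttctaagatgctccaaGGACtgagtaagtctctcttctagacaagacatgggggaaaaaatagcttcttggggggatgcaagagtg
Platr14, chr2:104568742-104568832, plus strand: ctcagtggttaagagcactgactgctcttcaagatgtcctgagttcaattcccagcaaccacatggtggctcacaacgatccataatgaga
Platr32, chr7:81066064-81066164, plus strand: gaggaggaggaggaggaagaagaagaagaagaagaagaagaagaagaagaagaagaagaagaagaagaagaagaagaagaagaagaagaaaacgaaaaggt
Snhg14, region 3, chr7:59973381-59973481, minus strand: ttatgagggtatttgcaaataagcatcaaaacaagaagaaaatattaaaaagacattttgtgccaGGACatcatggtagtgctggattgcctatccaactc
Snhg14, region 2, chr7:59970393-59970493, minus strand: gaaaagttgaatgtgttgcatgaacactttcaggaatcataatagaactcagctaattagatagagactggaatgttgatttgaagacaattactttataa
The last belongs to a Platr7 peak that was present in the 4 libraries of the Ythdc1 set and in none of the Mettl3 set.
Platr7, internal exon, chr10:84549364-84549464, minus strand: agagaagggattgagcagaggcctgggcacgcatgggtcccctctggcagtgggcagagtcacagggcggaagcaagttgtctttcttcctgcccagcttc

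Windows with and without GGAC were found among both the lost and the kept peaks. Across all 36 member regions with an exonic summit, 14 windows (38.9%) held GGAC, against 504 of 1066 (47.3%) in the other long non-coding RNA genes, and 9 (25%) held GGACT, against 180 (16.9%). The motif was searched on the sense strand only, and GGACT is contained in the GGAC count. The Platr31 window, absent from the Mettl3 knockouts, held GGAC and the Platr12 window, absent from the same libraries, did not. Of the 6 kept windows shown, 2 held it. Among kept windows not shown, with exonic summits in all 10 libraries, Platr4, Platr21 and Snhg11 held GGAC and Platr25 did not. The exonic Platr25 window absent from the Mettl3 knockouts held none either. The Platr32 window is a run of GAA repeats with no GGAC, and its peak was present in all 10 libraries.

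Some of these sequences have many relatives in the transcriptome. Of the 36 windows, 24 had no match in a transcript of another gene (80% identity over 80% of the window), 5 matched 1 to 9 other genes and 7 matched 10 or more. The Platr14 window shown matched 2353 other genes and the Platr32 repeat 182. A Platr25 window (region 10, chromosome 13, 62738504 to 62739018, minus strand) matched 218 other genes. The Platr25 window in the last exon (62671812 to 62673907) matched 35. A Platr31 window not shown (chromosome 6, 127100230 to 127100449) matched 181. How reads from such sequence were placed was not tested. Longer matches (at least 95% identity over at least 200 bp) to another gene were found for Platr2, Platr17, Platr25, Platr30, Snhg5 and Snhg14.

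Peaks were found on 23 of the 44 genes, 19 of 30 Platr and 4 of 14 Snhg. In the background, 26.3% of all GENCODE M21 genes had a peak in at least 1 library, as did 1224 of the 10114 other long non-coding RNA genes (12.1%). Snhg hosts with a peak (28.6%) were thus close to the share of all genes, and the Platr share (63.3%) lay above it. Among the other snoRNA hosts, 11 of 58 long non-coding hosts (19.0%) had a peak and 248 of 341 hosts of any kind (72.7%). Transcript levels were not used here.

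Most Snhg genes, the classical short snoRNA hosts, carried no listed peak. Snhg1, Snhg3, Snhg5, Snhg6, Snhg8, Snhg9, Snhg12, Snhg15, Snhg18 and Snhg20 had 0 peaks in all 10 libraries. These 10 genes were 0.435 to 5.67 kb long, with a median of 2.67 kb. The 4 with a peak were Snhg10, Snhg11, Snhg14 and Snhg17, of 1.66, 10.5, 668 and 7.88 kb, with a median of 9.19 kb. The Platr genes without a peak were Platr1, Platr5, Platr9, Platr13, Platr15, Platr16, Platr19, Platr23, Platr26, Platr27 and Platr29. These 11 had a median length of 3.97 kb, against 10.9 kb for the 19 with a peak, and Platr16, at 39.5 kb, was the longest without one. Genes with a peak were thus longer in the median in both families, as the plot of gene length and number of regions shows. The part of length in these shares was not tested.

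**Figure D1:**
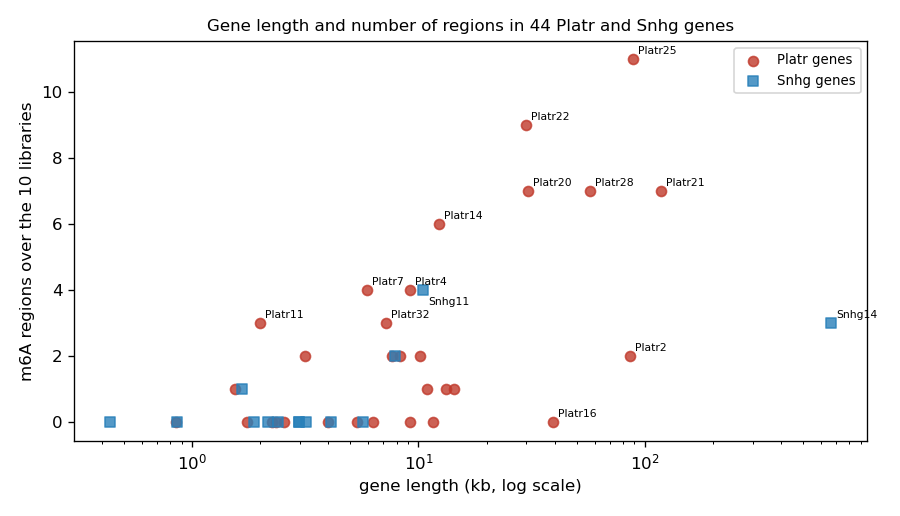
Gene length in kb (log scale, x axis) and number of m6A regions over the 10 libraries (y axis) for 44 genes; circles are Platr genes, squares Snhg genes. Platr25 had 11 regions in 88.9 kb and Snhg14 3 regions in 668 kb, and the 10 Snhg genes at 0 regions were all under 6 kb.

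Over the 10 libraries the 44 genes held 85 regions, 75 of them in Platr and 10 in Snhg genes. Both libraries of at least 1 group shared 70 of them, and 22 were present in all 10 libraries. Platr25 had the most (11), before Platr22 (9) and Platr20, Platr21 and Platr28 (7 each). A peak in all 10 libraries was found on 11 Platr genes and on Snhg11 and Snhg14. Only 1 library showed 10 of the 85 regions, among them the sole peak of Platr30.

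**Figure D2:**
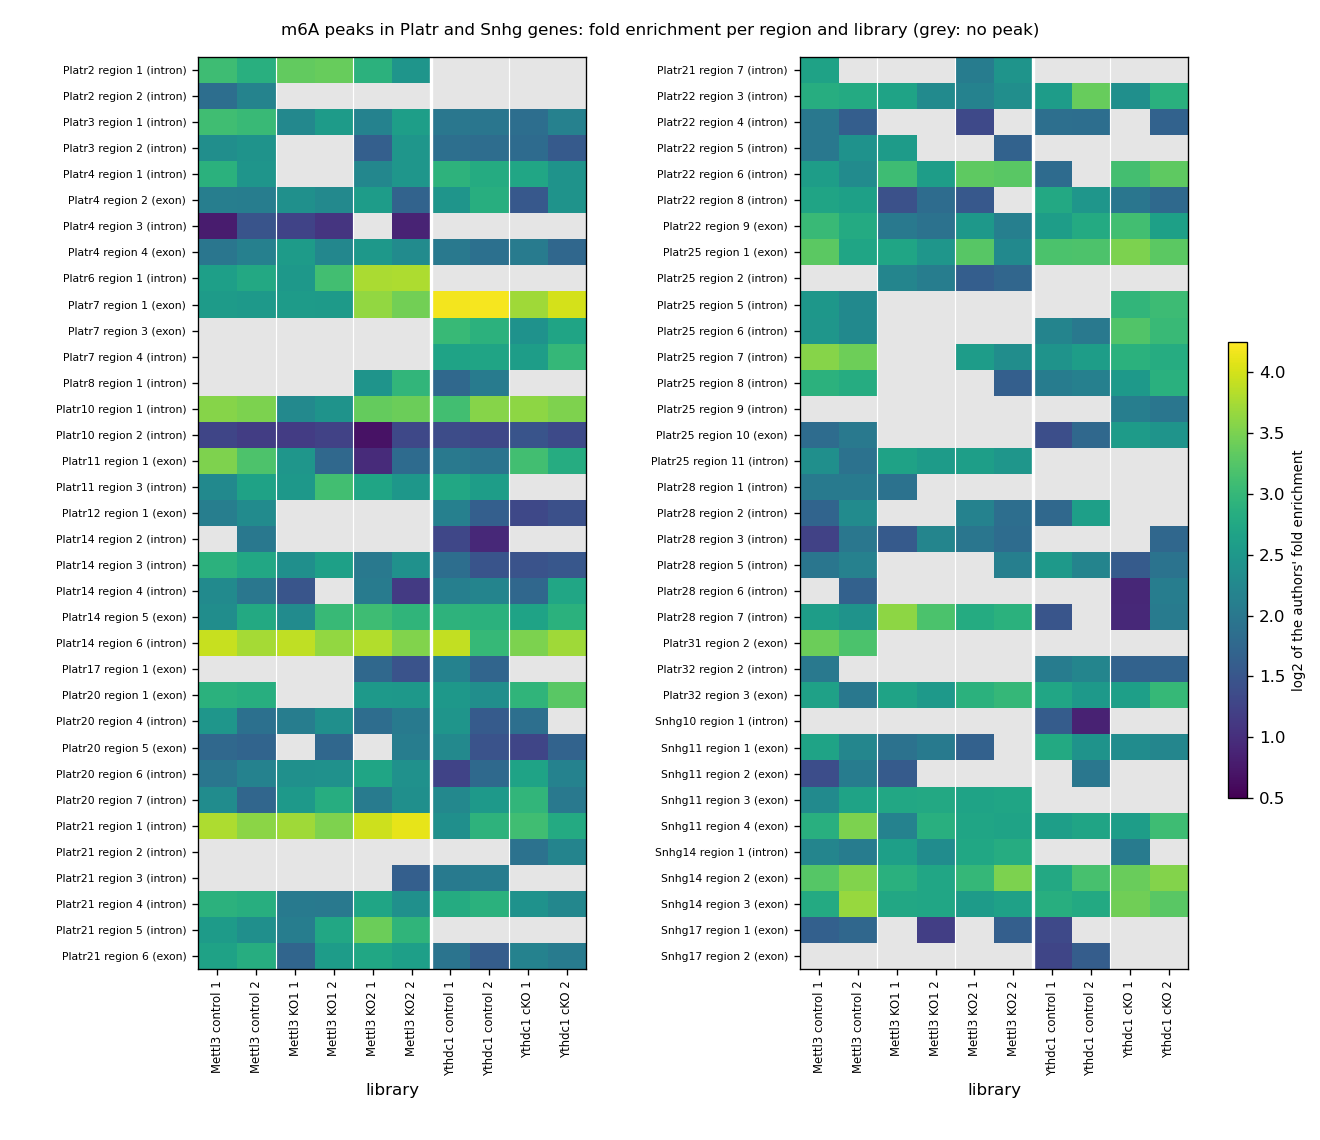
Fold enrichment (log2 colour scale) of the 70 regions present in both libraries of a group, one region per line and one library per column; grey marks no peak, the thick white line separates the Mettl3 set from the Ythdc1 set. Platr14 region 6 is bright in every column, Platr31 region 2 is coloured in the Mettl3 controls only, and both KO1 columns are grey in Platr25 regions 5 to 8.

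Peaks on Platr RNAs lay mostly in introns, and those on Snhg RNAs mostly in exons. In the Mettl3 control libraries 15 of 53 and 13 of 54 Platr peaks had their summit in an exon (28.3% and 24.1%), against 7 of 8 Snhg peaks in each. In the same libraries 52.7% and 52.5% of the peaks in all genes were exonic. The Platr share was 24.1% to 40.0% over the 10 libraries and that of all genes 44.4% to 62.5%. The other long non-coding RNA genes were also mostly intronic in every library, at 33.2% to 43.8% exonic, with 37.9% and 37.2% in the Mettl3 controls. Exons make up 7.57% of the Platr gene bodies. The Snhg share is 8.13% with Snhg14 and 68.6% without it, since Snhg14 is 3.91% exon while Snhg11 and Snhg17 are 81.1% and 89.5% exon, so exonic summits in those 2 genes fall where most of their length lies. Of the 56 member regions present in both Mettl3 controls, 19 (33.9%, Wilson 95% interval 22.9 to 47, counting error only) had an exonic summit at its strongest control peak. When it was enough that the strongest peak touched an exon, the share was 48.2%.

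**Figure D3:**
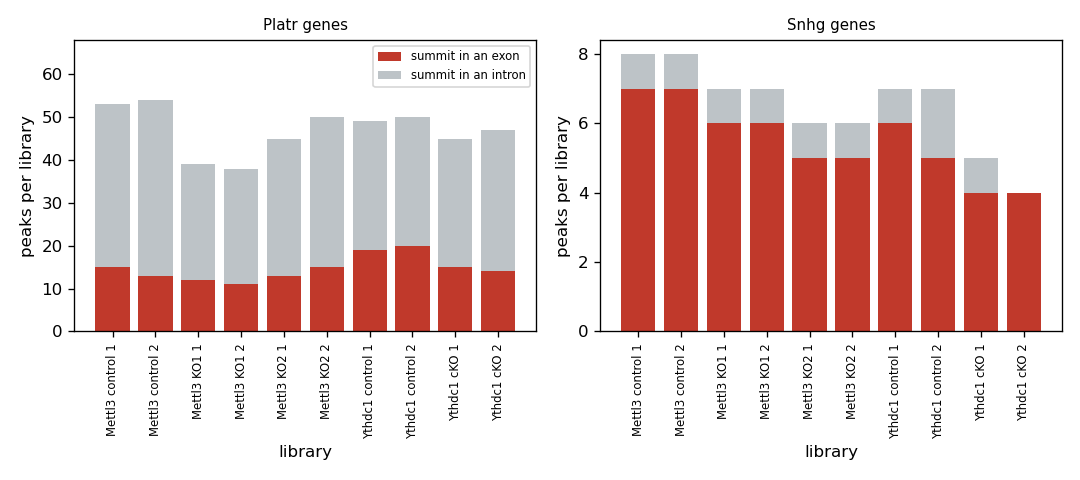
Peaks per library in Platr genes (left) and Snhg genes (right), stacked by the place of the summit. Intron summits outnumber exon summits in every Platr bar (38 and 15 in the first Mettl3 control library), and exon summits do in every Snhg bar (7 and 1 in that library).

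Platr14, whose knockdown is known to change developmental gene expression in embryonic stem cells, carried the strongest peak of both Mettl3 control libraries within these genes. Its region 6 (chromosome 2, 104569894 to 104571138, plus strand), in an intron, had folds of 15.25 and 13.47 in the Mettl3 controls. It had folds of 14.81 and 12.52 in KO1 and 14.11 and 11.65 in KO2. The Ythdc1 controls had folds of 15.03 and 8.059 and the cKO folds of 11.41 and 13.12. It stood at percentile 83.4 to 98.7 of all peaks of its own library, so it was among the stronger peaks in each of the 10 lists. Regions 3 and 5 of Platr14 were also present in all 10 libraries, at folds of 2.756 to 7.545 and 4.938 to 8.529.

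Platr21, a 118 kb gene on the X chromosome, carried another strong intronic peak, 100840 bp from its start. Region 1 (chromosome X, 139256722 to 139257026, minus strand) had folds of 13.76 and 12.17 with Mettl3 present, 13.2 and 11.48 in KO1 and 15.64 and 17.21 in KO2. In the Ythdc1 set it had folds of 5.152 and 7.555 in the controls and 8.536 and 6.942 in the cKO. Platr10 region 1 (chromosome 3, 75647990 to 75649467, minus strand), another intronic peak present everywhere, had folds of 11.86 and 11.44 in the Mettl3 controls, beside 4.795 and 5.358 in KO1. KO2 had folds of 10.27 and 10.6. Across the Ythdc1 set the controls stood at 8.669 and 11.86 and the cKO at 12.29 and 11.52.

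Platr7 had the highest fold of any member within each library of the Ythdc1 set. Its last-exon region 1 (chromosome 10, 84547665 to 84548526, minus strand) reached folds of 18.26 and 18.32 in both libraries of the Ythdc1 control, beside 13.15 and 16.16 without Ythdc1. In the Mettl3 set it had folds of 5.907 and 5.752 in the controls, 5.902 and 5.832 in KO1 and 12.44 and 10.93 in KO2. Platr7 also carried the 2 regions found in all 4 libraries of the Ythdc1 set and in none of the Mettl3 set, region 3 in the internal exon shown above (folds of 5.34 to 8.176) and region 4 in an intron (folds of 5.981 to 7.949).

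Platr22, a 29.9 kb gene, carried an exonic peak at the 3′ end, in the last-exon window shown above with a GGAC 17 nucleotides from the summit. Another exonic peak, at its 5′ end, was listed in the second Ythdc1 control and the first cKO library, at folds of 2.787 and 2.192. Region 9 (chromosome 1, 136725040 to 136725934, plus strand) had folds of 8.226 and 6.943 with Mettl3 present, 4.05 and 3.773 in KO1 and 5.667 and 4.335 in KO2. For Ythdc1, the controls stood at 6.021 and 6.952 and the cKO at 8.684 and 6.18. The 3′ peak was thus listed with and without Mettl3 and with and without Ythdc1.

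Other genes with a peak in every library showed it in introns, exons or both. Platr3 region 1 (chromosome 2, 135649376 to 135650056, plus strand), in an intron, had folds of 8.609 and 8.196 with Mettl3 present, 4.744 and 5.888 in KO1 and 4.485 and 6.095 in KO2. For Ythdc1 the values were 3.959 and 3.922 in controls and 3.63 and 4.44 in the cKO. Platr4 region 2 (chromosome 3, 41488872 to 41489686, minus strand), in an exon, had folds of 4.304 and 4.245 in the Mettl3 controls, 3.241 to 5.934 in their knockouts and 2.879 to 7.198 in the Ythdc1 set. Platr32 region 3 (chromosome 7, 81065979 to 81066258, plus strand), the GAA repeat, had 6.27 and 4.02 with Mettl3 present and 5.774 to 7.979 in the knockouts. Platr28, a 57.4 kb gene, had a peak in every library but no region common to all 10; its region 7 (chromosome 7, 107296572 to 107296932, plus strand) was absent from the second Ythdc1 control only, with 6.018 and 5.402 in Mettl3 controls and 12.21 and 9.147 in KO1.

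No Snhg region overlapped a snoRNA gene. The distance ran from 234 bp in Snhg10 to 50167 bp in Snhg14. Snhg14 is the long imprinted host RNA whose body holds 208 annotated snoRNA genes and which runs antisense over Ube3a. Its 3 regions all lay within the first 2.35% of the 668 kb gene, and the closest of them lay 36806 bp from the nearest snoRNA gene. Exonic region 3 (chromosome 7, 59973289 to 59973732, minus strand) had folds of 6.898 and 12.7 with Mettl3 present, 6.754 and 6.554 in KO1, and 5.869 and 6.24 in KO2. The Ythdc1 controls had it at folds of 7.238 and 6.89, and the cKO at 10.84 and 9.804. The peak was thus listed in all 10 libraries.

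Snhg14 region 2 (chromosome 7, 59970154 to 59970653, minus strand), also exonic, was present in all 10 libraries at folds of 6.614 to 11.76. Region 1, in an intron, was present in 6 of 6 libraries of the Mettl3 set (folds of 4.203 to 7.085) and in 1 of 4 of the Ythdc1 set, a cKO library. Snhg11 held 4 regions, 1023 bp or more from its 2 snoRNA genes. Its region 4 (chromosome 2, 158385224 to 158385804, plus strand), near the 3′ end, had folds of 7.264 and 11.45 in the Mettl3 controls and 4.474 to 7.318 in the 4 knockout libraries. In the Ythdc1 set it had folds of 6.008 to 8.485.

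The first comparison asked which of these peaks are still listed without the methyltransferase. A region counted as lost when both controls had a peak and no knockout library did, as kept when every library had one, and as gained when every knockout library and neither control had one. With 2 controls against 4 knockout libraries the smallest two-sided p that Fisher's exact test can give for 1 region is 0.0667, so no region can pass the usual threshold and the counts below are descriptions.

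Of the 56 member regions present in both Mettl3 controls, 6 (10.7%) were lost, in 4 Platr genes. The background was 8.96% of the 28881 control regions in all genes and 15.4% in other long non-coding RNA genes, so the members lay near it. Kept regions numbered 33 (58.9%), against 64.8% in all genes. The remaining 17 had a peak in some knockout libraries. None of the 8 Snhg control regions was lost and 5 were kept. Without the first Mettl3 control library 12 regions counted as lost, and without the first KO1 or the second KO2 library 8 and 9.

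Platr31, an antisense RNA gene, had the strongest lost peak. Region 2 (chromosome 6, 127109306 to 127109917, plus strand), in its last exon, had folds of 10.58 and 9.084 in the Mettl3 controls and no peak in the other 8 libraries, the Ythdc1 controls included. Its other region was found in the second Mettl3 control alone, at a fold of 5.116. A Platr31 peak was thus seen in 2 of 10 libraries, the same 2 in which 5 of the 6 fibroblast markers had one, and the part of those markers' source in it was not tested.

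Platr12 lost its 5′ exon region (region 1, chromosome 1, 63200132 to 63200711, plus strand). It had folds of 4.305 and 4.959 in the Mettl3 controls and no peak in the 4 knockout libraries. The Ythdc1 controls had it at folds of 4.371 and 3.116, and the cKO at 2.496 and 2.664. The cKO peaks were weak, at percentiles 6.64 and 8.38 of their libraries. A peak was therefore listed without the reader, near the low end of the lists, and none was listed without the methyltransferase. Platr2 lost an intron region (region 2, chromosome 13, 65796794 to 65797212, plus strand) with folds of 3.624 and 4.542 that had no peak in the Ythdc1 set either. Its other intron region (region 1, chromosome 13, 65782544 to 65782999) had folds of 8.456 and 7.257 in the controls, 10.24 and 10.35 in KO1 and 7.536 and 5.466 in KO2.

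Platr25 held the other 3 lost regions and the only gained one. Regions 5 to 8 form a group of intron peaks 31365 to 33971 bp from the gene start, and exonic region 10 lies closer to it, at 21829 bp. Region 5 (chromosome 13, 62726595 to 62726872, minus strand) had folds of 5.603 and 4.867 in the Mettl3 controls and no peak in any knockout. Region 6 (62727119 to 62727649) had folds of 5.542 and 4.867, and region 10 (62738504 to 62739018) folds of 3.532 and 4.037, each again with no peak in the knockouts. Region 7 (62727952 to 62728338) had folds of 11.88 and 10.67 in the controls, none in KO1 and 5.973 and 5.032 in KO2. Region 8 (62728804 to 62729730) had folds of 7.491 and 7.079 in the controls and a fold of 3.112 in the second KO2 library only. KO1 thus lacked all 5 of these regions in both libraries and KO2 lacked 3 of 5 in both.

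The same gene kept other peaks. Platr25 region 1 (62671812 to 62673907), in its last exon, was present in all 10 libraries at folds of 4.854 to 11.4. Region 11 (62754751 to 62754998), near the gene start, had folds of 5.176 and 3.761 in the Mettl3 controls and 5.562 to 6.328 in the 4 knockout libraries. The gained region 2 (62695217 to 62695512) had folds of 4.628 and 4.269 in KO1 and 3.066 and 3.327 in KO2, with no peak in the other 6 libraries. It was 1 of 34 member regions present in all 4 knockout libraries (2.94%), against 4.31% in all genes. Without the second KO2 library 2 regions counted as gained.

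**Figure D4:**
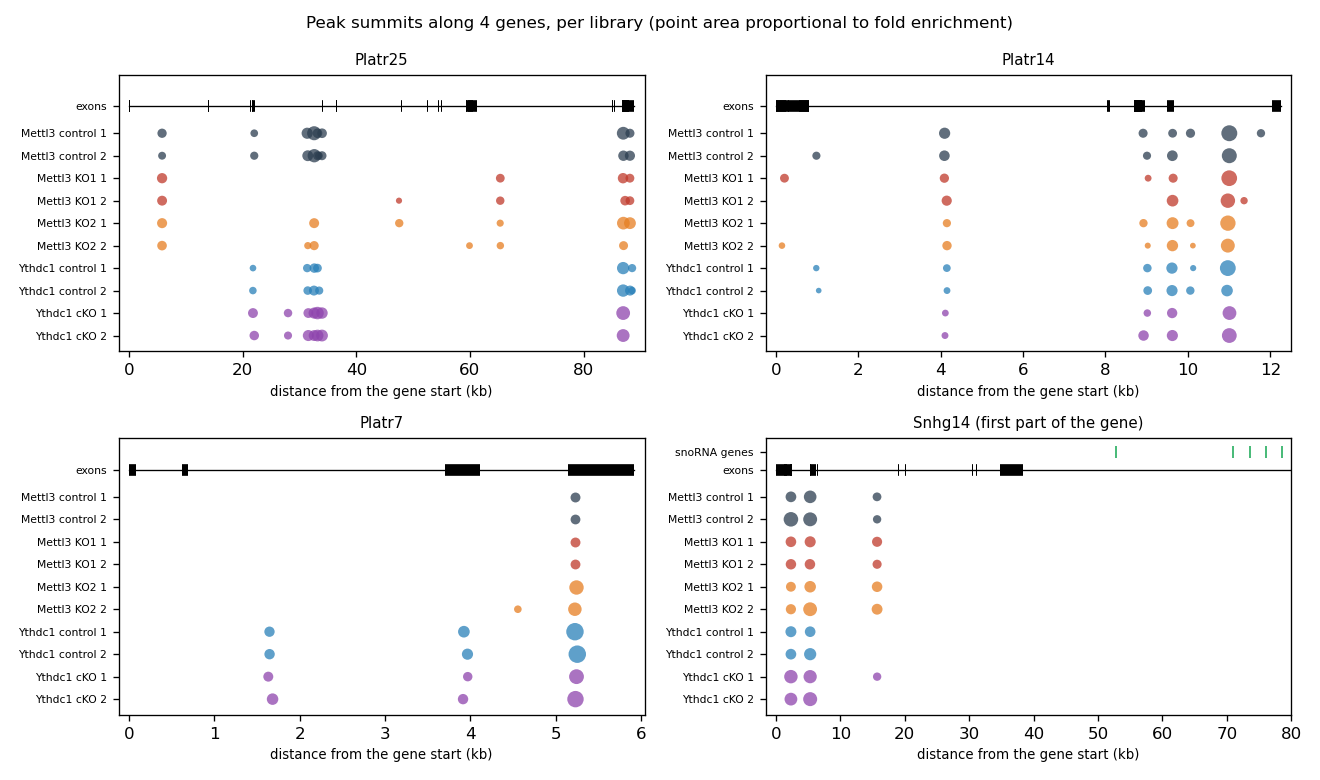
Peak summits (points, area proportional to fold enrichment) by distance from the gene start in kb, one line per library, with exons as black blocks and snoRNA genes as green ticks. In Platr25 the points between 31 and 34 kb are missing from both KO1 lines, Platr7 has 3 columns of points in the Ythdc1 set, and the Snhg14 points all lie before the first snoRNA gene.

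KO1 and KO2 did not miss the same peaks. Of the 56 control regions, 5 were absent from both KO1 libraries and present in both KO2 libraries (8.93%), against 4.68% in all genes and 127 of 1265 in other long non-coding RNA genes. The reverse was seen for 0 of 56, against 3.01% in all genes. The 5 were Platr25 region 7, Platr3 region 2, Platr4 region 1, Platr20 region 1 and Platr28 region 2. The KO1 libraries also had fewer peaks in all than the other libraries, and the part of that in these absences was not tested.

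Platr20 region 1 (chromosome 11, 51189971 to 51190433, minus strand), in the last exon, had folds of 7.43 and 7.19 in the Mettl3 controls, none in KO1 and 5.726 and 5.628 in KO2. Without Ythdc1 the folds were 7.718 and 9.804, beside 5.656 and 5.1 in that set's controls. Platr4, an RNA linked to mesoderm and endoderm differentiation, had in its intron region 1 (chromosome 3, 41485662 to 41486497, minus strand) folds of 7.422 and 5.469 in the controls, none in KO1, and 4.7 and 5.555 in KO2. In Platr20 and in Platr4 only the KO1 libraries lacked the peak, among all 10.

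**Figure D5:**
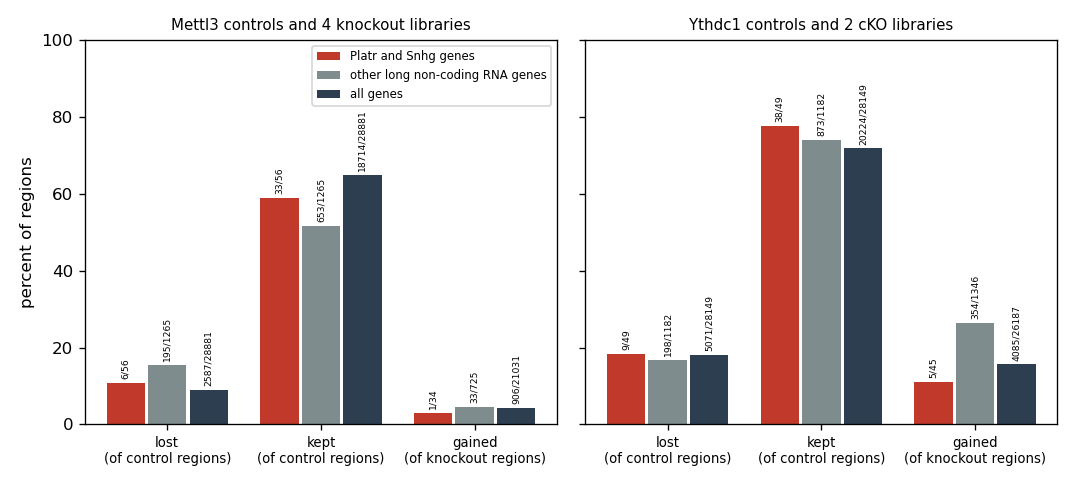
Percent of regions lost, kept and gained in the Mettl3 comparison (left) and the Ythdc1 comparison (right), for Platr and Snhg genes, other long non-coding RNA genes and all genes; numbers over the bars are regions counted of regions considered. The bars of Platr and Snhg genes stand close to those of all genes for lost regions (10.7% and 8.96% on the left, 18.4% and 18.0% on the right).

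The second comparison asked how the peaks differ without the reader Ythdc1. With 2 libraries against 2 the smallest two-sided exact p for 1 region is 0.333 by Fisher's exact test. Of the 49 member regions present in both Ythdc1 controls, 9 (18.4%) were lost and 38 (77.6%) kept, against 18.0% and 71.8% in all genes. The share gained was 5 of the 45 regions present in both cKO libraries (11.1%), against 15.6% in all genes and 26.3% in other long non-coding RNA genes. Without the first cKO library 8 regions counted as gained.

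Of the 9 lost regions, 7 were intronic, as were 20 of the 38 kept regions. The strongest lost region in the first control library was Platr11 region 3 (chromosome 9, 118405915 to 118406157, minus strand), 77 bp from the gene start. It had folds of 6.696 and 5.981 in the Ythdc1 controls and no peak in the cKO. The 6 libraries of the Mettl3 set all had it, at folds of 4.848 to 8.648, so among the 10 libraries only the cKO lacked it. Platr28 region 2 (chromosome 7, 107256293 to 107256773, plus strand) had folds of 3.388 and 6.128 in the controls and none in the cKO, and was also missing from KO1. Platr8 region 1 (chromosome 2, 109909644 to 109910147, minus strand), with folds of 3.416 and 4.155, and Platr17 region 1 (chromosome 17, 33905485 to 33905943, plus strand), with folds of 4.476 and 3.296, were the only regions of their genes, and each was otherwise seen in KO2 alone.

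The other 5 lost regions lay in Snhg10, Snhg17, Platr14 and Platr21. Snhg10 region 1 (chromosome 12, 105031583 to 105032107, minus strand) had folds of 3.021 and 1.811 in the controls, at percentiles 16.9 and 1.08 of their peaks. Snhg17 region 2 (chromosome 2, 158360831 to 158361130, minus strand) had folds of 2.445 and 3.052, at percentiles 7.07 and 15.8. Neither region had a peak in any other library. Platr14 lost region 2 (folds of 2.452 and 1.904, percentiles 7.2 and 1.56). It also lost an intron stretch inside the wider region 5 (104569096 to 104569406, folds of 2.285 and 4.232, percentiles 5.01 and 42.1). Platr21 lost region 3 (chromosome X, 139303472 to 139303684), with folds of 4.088 and 4.218, at percentiles 41.7 and 41.9.

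The gained regions were all intronic, as were 31 of 50 and 33 of 51 member peaks in the cKO libraries. Intronic shares of lost and gained regions over all genes were not computed. Platr25 held 2 of the 5 gained regions. Region 5, lost from the Mettl3 knockouts, had no peak in either Ythdc1 control and folds of 7.821 and 8.426 in the cKO. Region 9 (62732583 to 62732782) had folds of 4.294 and 3.921 in the cKO and no peak in the other 8 libraries. The neighbouring regions 6, 7 and 8 were kept, with folds of 4.592 and 4.029, 5.376 and 5.981, and 4.2 and 4.407 in the controls, and 9.405 and 8.267, 7.412 and 7.101, and 5.776 and 7.366 in the cKO. The other gained regions lay in Platr21, Platr28 and Platr20. Platr21 region 2 had folds of 3.783 and 4.557, at percentiles 32.2 and 48.0 of the cKO peaks. Platr28 region 6 had 1.884 and 4.242, at percentiles 1.39 and 42.0, and a fold of 3.185 in the second Mettl3 control. Platr20 (51219151 to 51219387, inside the wider region 7) had 3.515 and 2.775, at percentiles 25.3 and 10.1. That Platr20 stretch also had peaks in both KO1 libraries (5.781 and 7.155) and the first KO2 library (4.17).

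The sets of libraries also differed from each other in these genes. Of the 33 member regions present in all 6 libraries of the Mettl3 set, 5 (15.2%) had no peak in the Ythdc1 set, against 5.96% in all genes. Of the 38 present in all 4 libraries of the Ythdc1 set, the 2 of Platr7 (5.26%) had none in the Mettl3 set, against 2.95%. In the other long non-coding RNA genes these shares were 7.93% and 5.98%. Each set includes its own controls, so these regions differed between the controls of the sets as well as between the knockouts. The labels do not say what the controls were, and the source of these differences was not tested. The 5 were Platr2 region 1, Platr6 region 1, Platr21 region 5, Platr25 region 11 and Snhg11 region 3.

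Platr6 region 1 (chromosome 10, 21840108 to 21840367, minus strand), the sole region of that gene, had folds of 6.137 and 6.803 in the Mettl3 controls. KO1 had folds of 5.659 and 8.659 and KO2 of 13.69 and 13.84, and the Ythdc1 set had no peak there. Snhg11 region 3 (chromosome 2, 158382042 to 158382281, plus strand), in an exon, had folds of 4.896 and 6.369 in the controls and 6.368 to 6.803 in the knockout libraries. Platr21 region 5 (chromosome X, 139335792 to 139336300) had folds of 5.907 and 5.144 in the controls and 4.259 to 10.65 in the knockout libraries. All 3 peaks were thus present with and without Mettl3 in that set.

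Overlapping genes limit a few of these assignments. Platr32 lies within Alpk3 on the same strand, so its 3 regions, among them the GAA repeat, may belong to either transcript. Platr11 region 1 (chromosome 9, 118402666 to 118404505) reaches past the gene end into 2610509F24Rik, and its summits lay inside Platr11 in 5 of 10 libraries. It was counted as kept in both comparisons, although both Mettl3 control summits and both cKO summits lay outside Platr11. Among 11 other long non-coding RNAs of stem cells or snoRNA hosts found in GENCODE M21, 6 had a peak, Firre, Lncenc1, Malat1 and Neat1 in all 10 libraries, Tunar in 8 and Gas5 in 1. They held 17 Mettl3 control regions, of which 2 were lost and 8 kept, and 18 Ythdc1 control regions, of which 6 were lost and 12 kept.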

How the data were processed

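Of 20 samples, 10 m6A immunoprecipitations had peak lists, and the 10 inputs were not analysed here. The tools named in the submitters' processing notes are HISAT2 2.1.0, MACS2, Trimmomatic 0.38 and CASAVA, with the mm10 build; peak-calling settings and input pairing are not given in the sources used here. By their peak names, the deposited lists were made per library and strand. The columns deposited by the authors are a display score, a fold enrichment (ratio), −log10 of the p-value and q-value, and the summit. All peaks were at least 150 bp with −log10 q of at least 2.0. The depth behind each list was not used here.

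Peaks outside the assembled chromosomes, 17 to 35 per library, were left out. Peaks were joined per strand where they shared at least 1 bp, over the libraries of each comparison for lost, kept and gained counts and over all 10 for the numbered regions and their coordinates. Genes and exons came from GENCODE M21 (GRCm38), all transcripts. Matches between sequences were found with BLAST+ 2.17.0, tables made with Python 3.11.15 and SciPy 1.17.1. The merging and calls were tested on simulated lists whose regions lay far apart, so the joining of neighbouring peaks was not tested.

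The members, gene lists and counts were chosen with earlier results of these data known. Values are given for members with a lost or gained region, with peaks in all 10 libraries or with the highest folds, and the others by counts. Lists outside the members were the other long non-coding RNA genes, the other snoRNA hosts, 12 named long non-coding RNAs and the cell type markers. Alternatives were the rule of assignment, a stricter q, summit distance, shared genes, each library and each line left out, and the definition of an exon.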

Additional observations from a re-analysis of the deposited data

Results flagged for a closer look

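Platr25 region 5 (chromosome 13, 62726595 to 62726872, minus strand) stood out because, against its own controls, it went opposite ways in the 2 knockouts. It had folds of 5.603 and 4.867 in the Mettl3 controls and no peak in the 4 Mettl3 knockout libraries. In the Ythdc1 set it had no control peak but folds of 7.821 and 8.426 in the cKO. The controls of the 2 sets thus already differed at this region. The share of such regions over all genes was not computed, and the difference between the knockouts was not tested.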

How the results depend on the processing

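Over 7 counts and shares, 67 of 77 alternative values stayed within 1.5 times the reported count or within the interval of the reported share. The 6 regions lost from the Mettl3 knockouts became 15 with KO1 alone and 11 when 3 of 4 knockout libraries were enough. Leaving out 1 library at a time gave 6 to 12. The 1 gained region became 2 with KO1 alone, 3 with KO2 alone, 2 when 3 of 4 libraries were enough and 3 when peaks were joined by summits within 100 bp, and leaving out 1 library gave 1 to 2. The 5 regions gained in the cKO became 5 to 8 when 1 library was left out, and 4 to 5 under the other alternatives. Fewer libraries make each rule easier to meet by construction, and for the summit rule the cause was not tested. The exon share was 48.2% when the peak needed only to touch an exon, an alternative chosen after seeing the data, as was merging all 10 libraries. No paired analysis was possible because these counts come from no test; presence was not compared within replicate numbers. Peak lists carry no depth, so weak peaks limit every absence.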

Other observations

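Signal outside the rule was also present at these genes. Of the 21 members with no peak in the body, 8 had a same-strand peak within 5000 bp of it in at least 1 library, and Platr16, Platr23 and Snhg9 had one in all 10. On the opposite strand, 9 of the 44 genes had a peak within the body in at least 1 library, and Platr2, Platr21 and Snhg14 had one in all 10. Snhg14 runs opposite to Ube3a. Platr31 had opposite-strand peaks in 6 libraries and its own in 2. These genes were named after their values were seen. The shares of other genes with flanking or opposite-strand peaks were not computed, so whether the members differ from them was not tested.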
